A study of Mus musculus with 2 samples.

Results

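The mitochondrial carrier genes were compared between a control sample and a sample of the genotype written CA/CA, both mouse hematopoietic stem and progenitor cells profiled on Illumina bead arrays. Members were chosen by name alone, as all genes whose probes the platform annotation pairs with 1 symbol starting with Slc25a, together with the uncoupling protein genes of the Ucp1 to Ucp3 series. This gave 48 genes with 79 probes, out of 19057 named genes on the array. Ucp2 is not analysed here. The labels give the cells of both samples as Flt3-low LSK. LSK cells lack lineage markers, carry Sca1 and c-Kit and include the hematopoietic stem cells (HSCs). By the title of the series, the mice are transgenic and express in HSCs a constitutively active form of IKK2, the kinase that activates canonical NF-kB signalling, and CA/CA is read here as that genotype. The sources used here do not name the driver of the transgene, the strain, the age of the mice or how many mice made up a sample. Each genotype had 1 array, so no difference has a replicate error or a test, and a value compares 2 samples rather than 2 genotypes.

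Carriers of the SLC25 family sit in the inner membrane of mitochondria and exchange small molecules between the cytosol and the matrix, among them adenine nucleotides, phosphate, carboxylates, amino acids, cofactors and iron. They tie the cytosolic and mitochondrial steps of many pathways together. In blood-forming cells the best known are the iron importers called mitoferrins and the glycine carrier Slc25a38, which serve haem synthesis in red cell precursors. The uncoupling proteins belong to the same family.

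The 3 members that differed by 1.5-fold or more were Slc25a38 and Slc25a33, higher in CA/CA, and Slc25a45, lower, where 4.35% and 6.31% of all genes above background on both arrays were higher and lower by that much. With an offset of 50 units in place of 16, Slc25a33 was at 0.58, just inside 1.5-fold. Upstream sequences of the 3 genes are shown so that these genes can be placed in the genome and inspected for motifs of factors known from red cell, inflammatory and housekeeping gene control. Each sequence is the 250 bases before the RefSeq transcription start on build GRCm38.p6, read 5′ to 3′ on the gene's own strand. Capitals mark matches, on either strand, to 4 motifs: GATAA for GATA factors, CACCC for Kruppel-like factors, CCGGAAG for ETS factors and the consensus of NF-kB.
Slc25a38 (chr9:120110132-120110381, plus strand): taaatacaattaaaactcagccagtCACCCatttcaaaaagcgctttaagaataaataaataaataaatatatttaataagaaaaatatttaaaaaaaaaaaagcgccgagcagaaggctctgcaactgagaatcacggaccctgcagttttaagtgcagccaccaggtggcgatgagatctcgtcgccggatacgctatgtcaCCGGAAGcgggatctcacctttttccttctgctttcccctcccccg
Slc25a33 (chr4:149774268-149774517, minus strand): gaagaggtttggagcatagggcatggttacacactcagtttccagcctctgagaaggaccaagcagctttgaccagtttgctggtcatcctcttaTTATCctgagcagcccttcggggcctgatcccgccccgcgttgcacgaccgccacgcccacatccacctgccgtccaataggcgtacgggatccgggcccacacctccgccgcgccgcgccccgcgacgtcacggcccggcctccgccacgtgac
Slc25a45 (chr19:5877572-5877821, plus strand): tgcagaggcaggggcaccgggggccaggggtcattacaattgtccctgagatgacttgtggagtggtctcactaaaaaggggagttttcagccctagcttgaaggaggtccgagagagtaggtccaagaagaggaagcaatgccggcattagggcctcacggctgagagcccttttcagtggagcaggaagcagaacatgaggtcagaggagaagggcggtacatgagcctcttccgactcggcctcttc

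The Slc25a38 window held 1 CACCC match and 1 ETS match and no GATAA match, the Slc25a33 window held 1 GATAA match, and the Slc25a45 window held 0 matches to any of the 4. No 2 of the matches in these windows overlapped. RefSeq windows were found for 38 of the 48 members, some with several starts. Over members with a window, CACCC was present in 65.8%, GATAA in 18.4%, CCGGAAG in 15.8% and the NF-kB consensus in 2.63%. Over all 27025 genes in the same table the shares were 54.5%, 25.5%, 7.83% and 5.67% in the same order. The median GC content of the windows was 57.4% for the members and 52.4% for all. These are matches of letters within 250 bases and say nothing about binding.

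On the arrays, 34 of the 48 members (70.8%) had at least 1 probe above the background floor of 92 signal units on at least 1 array, against 53.1% of all named genes. Of these, 31 were above it on both arrays, 2 in the control only and 1 in CA/CA only, where 4.36% and 4.13% of all named genes lay. Differences are given as CA/CA minus control on the log2 scale after 16 units are added to each signal, averaged over the probes of a gene above the floor. Background light is still part of every signal, so differences of dim genes are understated. Of the 31 members above the floor on both arrays, 1 passed the 2-fold rule as higher in CA/CA, Slc25a38, and 1 as lower, Slc25a45. Of all 8500 genes with a signal above the floor in both samples, 1.31% passed the 2-fold rule as higher and 1.87% as lower, or 3.18% in either direction. The members' counts were near these shares.

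The family as a whole had nearly the same level in both samples. The median difference over the 34 measured members was 0.03, and it was also 0.03 over the 31 above the floor on both arrays, with the central 50% of these between -0.15 and 0.18. Over the 8500 genes above the floor on both arrays the median was 0.01, with the central 50% between -0.18 and 0.18. Of the 31 members, 19 had a positive difference (61.3%, against 51.3% of all genes). Where just 1 array passed the floor, the filter itself fixed the sign, so medians and counts of signs below are over genes that passed it on both arrays. Where a gene had several probes, their log2 differences spread with an SD of 0.24 (3861 genes). This is a spread between different probes of 1 gene and not the error of a difference between the samples, for which there is no measure. It serves below as a size to compare with only. Of the 31 members, 26 (83.9%) differed by less than this SD, as did 60.8% of all genes. The 5 members beyond it were Slc25a38, Slc25a33, Slc25a44, Slc25a3 and Slc25a45.

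**Figure D1:**
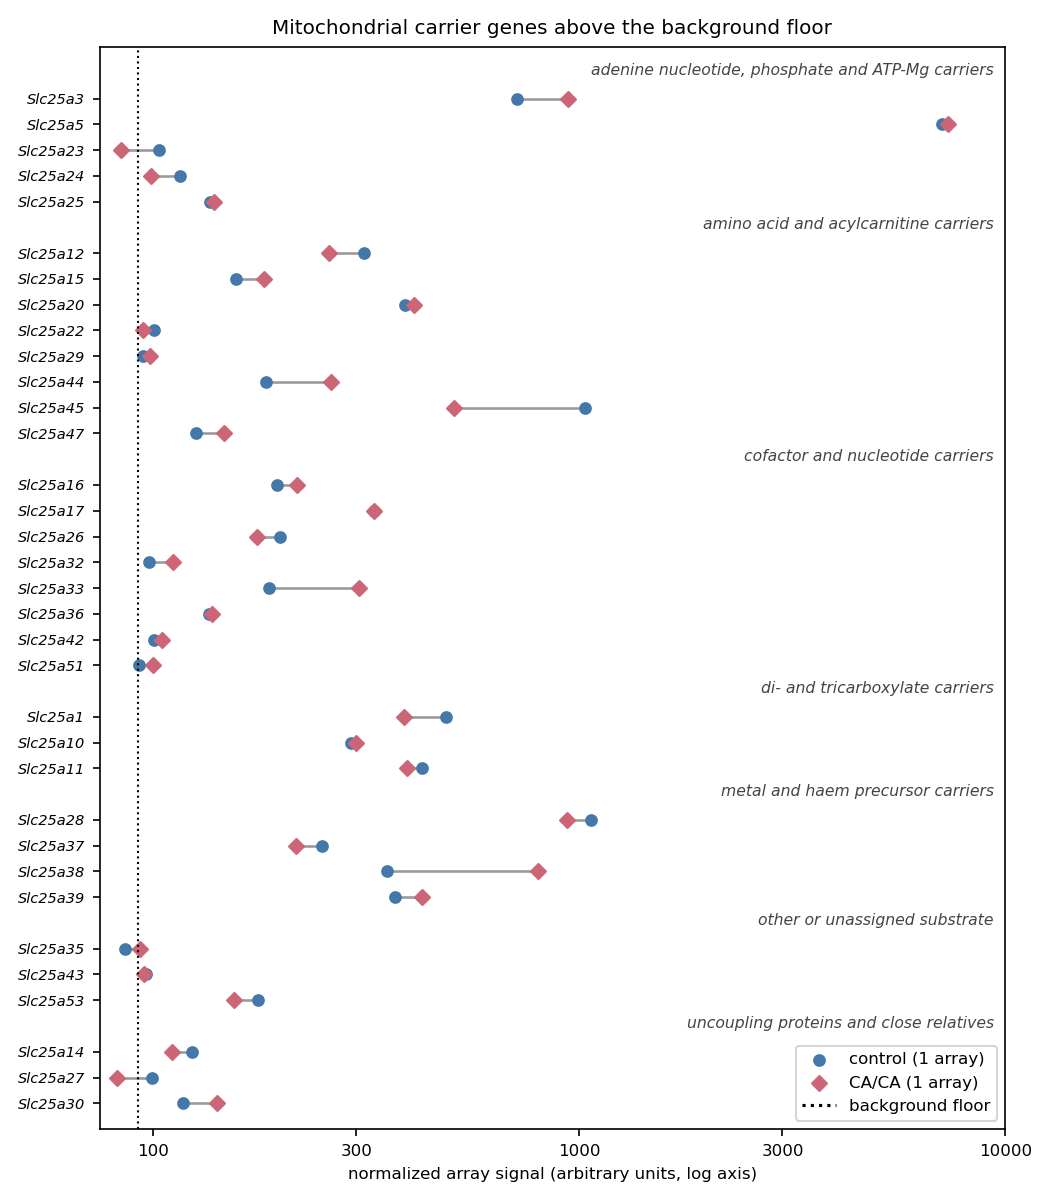
Normalized array signal (log axis) of the 34 carrier genes above the background floor on at least 1 array, by role, with a circle for the control array, a diamond for the CA/CA array and a dotted line at the floor of 92 units. Slc25a38 and Slc25a33 lie to the right in CA/CA and Slc25a45 to the left, while most pairs of symbols nearly touch; different genes have different probes, so their levels are not compared with each other.

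**Figure D2:**
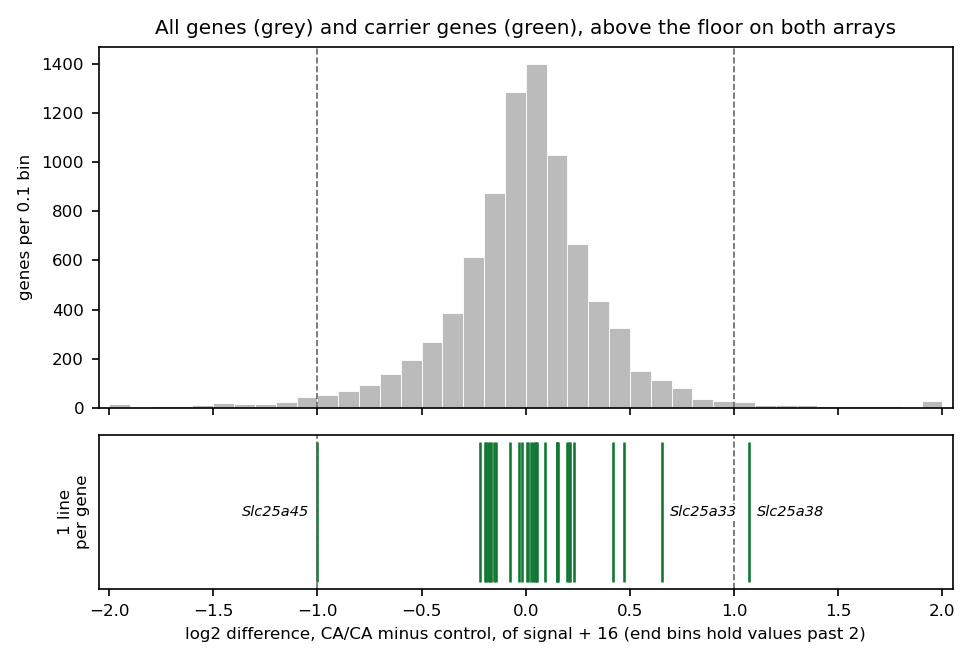
Log2 differences, CA/CA minus control, of the 8500 genes above the floor on both arrays (grey, genes per bin) and of the 31 carrier genes among them (green, 1 line per gene), with dashed lines at 2-fold. Most carrier genes lie in the centre of the distribution of all genes, and 2 lie at or past the dashed lines.

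Carriers that serve haem synthesis held the largest difference of the family. Slc25a38, which in human and zebrafish brings glycine into mitochondria for the first step of haem synthesis, had a mean signal of 355 (control) and 802 (CA/CA), a log2 difference of 1.07. All 3 of its probes were higher in CA/CA: ILMN_2946905 had signals of 722 and 1647, ILMN_1256420 of 214 and 514, and ILMN_2946901 of 130 and 244. The probe differences ran from 0.84 to 1.20, above the probe SD in each case. Among the 8500 genes above the floor on both arrays, 94 (1.11%), Slc25a38 included, were higher by at least as much.

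The mitoferrins did not share this difference. Slc25a37, mitoferrin 1, the main iron importer of erythroid mitochondria, was at 249 (control) and 216 (CA/CA) through 1 probe, a difference of -0.19, and its other probe, ILMN_1230858, was below the floor on both arrays. Slc25a28, mitoferrin 2, the importer of most other tissues, was at 1067 and 938, a difference of -0.18. Both differences were smaller than the probe SD of 0.24. Slc25a39, a carrier needed for mitochondrial glutathione uptake, was at 369 and 429, and its relative Slc25a40 had 3 probes, each below the floor on both arrays.

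Other genes of haem and iron-sulphur cluster synthesis that work in mitochondria were higher or lower one by one. Of 13 listed, 11 were measured, of which 8 exceeded the floor in both samples, with a median difference of 0.58 (0.28 to 0.998 over 8 other settings). Of these 8, 1 passed the 2-fold rule as higher and 0 as lower. Glrx5, a glutaredoxin of iron-sulphur cluster assembly, was at 926 (control) and 1977 (CA/CA), a difference of 1.08. Abcb6, a porphyrin transporter, was at 176 and 334. Tmem14c, which moves the haem precursor protoporphyrinogen in mouse erythroid mitochondria, was at 1315 and 2352, and its 3 probes gave differences of 0.68 to 0.97. Alas1, the housekeeping enzyme that joins glycine and succinyl-CoA, was lower, at 4598 and 2722, a difference of -0.75. Alas2, its erythroid counterpart, did not reach the floor in the control and had a CA/CA signal of 110, at least 1.16-fold higher.

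The Slc25a38 difference stood beside a large one in red cell markers. Of 13 erythroid markers listed, 11 were measured. Of the 9 that exceeded the floor in both samples, 7 passed the 2-fold rule as higher and 0 as lower, and their median was 1.57 (1.36 to 2.62 over 8 other settings). Summed over all 11, with Ermap and Trim10 above the floor in CA/CA only, the mean signal above background was 2426 (control) and 10810 (CA/CA). No marker was at 0, since each signal includes background. Klf1, a transcription factor of red cell precursors, was at 118 and 978, Car1, a carbonic anhydrase, at 289 and 3112, and Aqp1, a water channel, at 240 and 2198. The late markers Slc4a1, the anion exchanger of red cells, and Hba-a1, an alpha globin, were at 137 and 156 and at 1036 and 939. The part that the number of erythroid cells in each sort plays in the Slc25a38 value was not tested, and in bulk RNA more cells of a type and more RNA per cell cannot be told apart.

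Among amino acid and acylcarnitine carriers, Slc25a45 was the member lower in CA/CA by the most in the family. It was at 1034 (control) and 509 (CA/CA), a log2 difference of -1.0005 through its 1 probe, ILMN_1251109. This lies just past the 2-fold threshold of a log2 difference of 1, and of the 8500 genes, 159 (1.87%), Slc25a45 included, were lower by at least as much. No second probe of the gene was present to set beside it. Slc25a45 is an inner membrane carrier of the amino acid transporting branch of the family.

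The other 7 measured members of this group were within 2-fold. Slc25a44, the carrier of branched-chain amino acids, was at 184 (control) and 262 (CA/CA), a difference of 0.47 through 1 probe. Slc25a12, the aspartate and glutamate exchanger of the malate-aspartate shuttle, was at 314 and 259. Its 2 probes disagreed in sign, at -0.34 for the brighter and 0.03 for the dimmer. Its close relative Slc25a13 was below the floor on both arrays.

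Slc25a15, the ornithine carrier that links the mitochondrial and cytosolic steps of the urea cycle, was at 156 and 183, with its 2 probes at 0.19 and 0.24. Slc25a20, which exchanges carnitine for acylcarnitines and so feeds fatty acid oxidation, was at 391 and 409. Its brighter probe was at 643 and 645, a difference of 0.00, and the dimmer one, ILMN_3061070, at 139 and 174. The mean differences of the 2 genes, 0.21 and 0.15, were below the probe SD.

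The remaining members of the group were dim on both arrays. Slc25a22, a glutamate carrier, was at 100.5 and 94.7, and Slc25a29, a carrier of basic amino acids, at 94.9 and 98.6. Slc25a47, known as a liver carrier, was at 126 and 147. Slc25a2, Slc25a18 and Slc25a48 were below the floor on both arrays. Over the 8 measured members of the group the median difference was 0.10.

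Pathway partners of these carriers were within 2-fold. Of 10 ornithine, proline and urea enzymes listed, 6 were measured, 5 of them on both arrays, with a median of 0.28 (0.01 to 0.31 over 8 other settings) and 0 past 2-fold, and with Aldh18a1, the first enzyme of proline synthesis, at 390 (control) and 560 (CA/CA). Of 12 genes of carnitine use and fatty acid oxidation, 11 were measured on both arrays, the median was 0.14 (0.07 to 0.16) and 0 were past 2-fold. Acadm, the medium-chain acyl-CoA dehydrogenase, was at 1322 and 812, a difference of -0.69, and Etfb, which takes electrons from such dehydrogenases, at 5158 and 3749. These 2 were lower, but 8 of the 11 were above 0, with Acadl at 0.41 and both of its probes above the floor higher. Of 10 listed enzymes of mitochondrial serine, glycine and one-carbon metabolism, 5 were measured on both arrays, with a median of 0.30 (0.13 to 0.85) and 0 past 2-fold. In this list Mthfd2 was at 492 and 901 and Shmt2, which makes glycine from serine in mitochondria, at 234 and 383, each with both probes higher in CA/CA.

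Adenine nucleotide and phosphate carriers supply oxidative phosphorylation. Slc25a5, the adenine nucleotide translocator ANT2 of dividing cells, was at 7116 (control) and 7326 (CA/CA), a difference of 0.04. Slc25a4, the heart and muscle form ANT1, and Slc25a31, the germ cell form, were below the floor on both arrays. Slc25a3, the carrier that brings phosphate and copper into the matrix, was higher in CA/CA. Its probe ILMN_2751046 was at 1106 and 1437 and ILMN_2960467 at 322 and 449, differences of 0.37 and 0.46.

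The calcium-regulated carriers of ATP-Mg and phosphate were dim. Slc25a24 was at 116 and 98.96, with the 2 probes above the floor at -0.24 and -0.16, and Slc25a25 at 136 and 139. Slc25a23 reached the floor on the control array only, with a signal of 104 there, and was at least 1.11-fold lower in CA/CA. Slc25a41 and Slc25a54 were below the floor on both arrays. Over the 4 members of this group above the floor on both arrays the median was 0.03.

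Carriers of cofactors and nucleotides were all measured, 8 of 8, and 7 of them were above 0, all but Slc25a33 by less than the probe SD. Slc25a33, a carrier of pyrimidine nucleotides into mitochondria, had the largest difference, 0.65, at 188 (control) and 304 (CA/CA). It has 1 probe, and 292 (3.44%) of the 8500 genes, Slc25a33 included, were higher by at least as much. Its relative Slc25a36, which also carries pyrimidine nucleotides, was at 135 and 137, with 2 probes above the floor at -0.04 and 0.06, and the sign of its mean changed in 4 of 8 other settings. The 2 pyrimidine carriers did not have a common difference.

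Slc25a32, linked to folate and flavin transport, was at 97.99 and 112, with its 2 probes above the floor at 0.04 and 0.27. Slc25a16 was at 195 and 218, Slc25a17, a carrier of peroxisomes rather than mitochondria, at 330 and 331, and Slc25a26, the carrier of the methyl donor S-adenosylmethionine, at 199 and 175. Slc25a42, a coenzyme A carrier, was at 100.7 and 105, and Slc25a51, the carrier of NAD, at 92.8 and 100.2. The last 2 lay within a few units of the floor. The median over the 8 was 0.07.

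Carboxylate carriers, which move intermediates of the citric acid cycle, differed by less than the probe SD. Slc25a1, the citrate exporter used for fatty acid synthesis, was at 487 (control) and 387 (CA/CA). Its brighter probe, ILMN_2919263, was at 733 and 533, a difference of -0.45, and the other, ILMN_2619846, at 240 and 242, so that the lower mean rests on 1 of the 2 probes. Slc25a10, the dicarboxylate carrier, was at 292 and 299. Slc25a11, the oxoglutarate and malate carrier, was at 428 and 395, and its 3 probes ran from -0.25 to 0.17. Slc25a21, a carrier of longer oxodicarboxylates, was below the floor on both arrays.

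Enzymes that work with these carriers in the shuttles and in citrate use had a median of 0.00 over 9 above the floor on both arrays of 15 listed, ranging from -0.02 to 0.00 over 8 other settings, and 0 were past 2-fold. Mdh2, the malate dehydrogenase of the matrix, was at 539 (control) and 813 (CA/CA), and Cs, citrate synthase, at 532 and 793. Got2, the mitochondrial aspartate aminotransferase, was at 4327 and 5475. Acly, which splits the exported citrate, was at 2033 and 1854.

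The uncoupling proteins and relatives analysed here, which do not include Ucp2, were dim or below the floor. Ucp1, the heat-producing uncoupler of brown fat, and Ucp3, the muscle form, were below the floor on both arrays. Slc25a14 was at 124 (control) and 111 (CA/CA), and Slc25a30 at 118 and 141, differences of -0.14 and 0.23. Slc25a27 also reached the floor on the control array only, at 99.6, and was at least 1.07-fold lower in CA/CA. Of the 5 members without an assigned substrate, Slc25a53 was at 177 and 155, Slc25a43 at 96.4 and 95.1, and Slc25a35 was above the floor in CA/CA only, at least 1.01-fold higher. Slc25a34 and Slc25a46 were below the floor on both arrays.

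**Figure D3:**
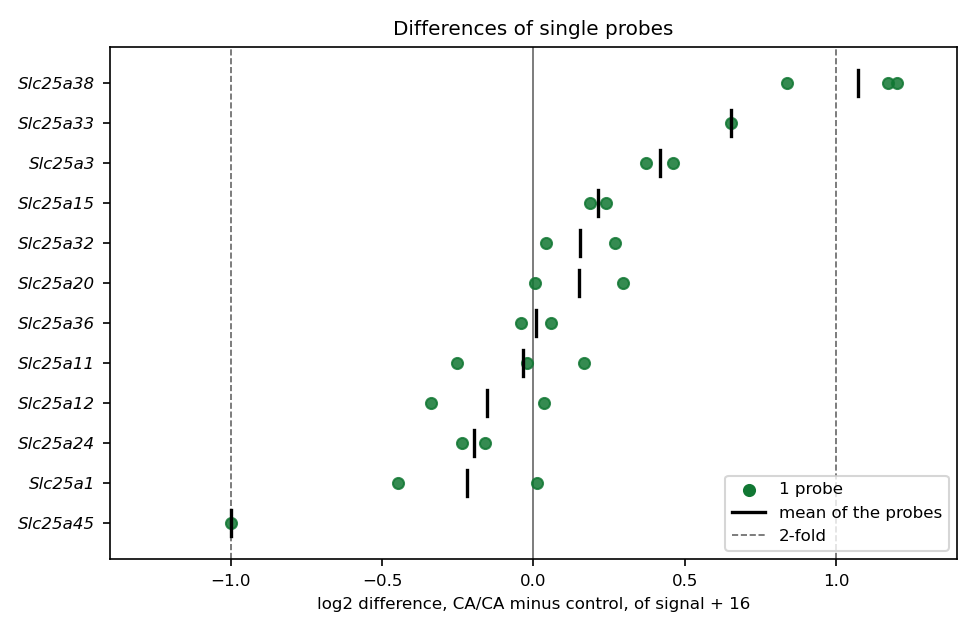
Log2 differences, CA/CA minus control, of single probes (points) and their mean (bar) for the 10 carrier genes with 2 or more probes above the floor and for Slc25a33 and Slc25a45, which have 1 probe each. All 3 Slc25a38 probes lie between 0.84 and 1.20, and the probes of Slc25a1, Slc25a11, Slc25a12 and Slc25a36 lie on both sides of 0.

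Agreement between probes limits what can be said of the smaller differences. Of the 10 members with at least 2 probes above the floor, 6 had all of them on the same side of 0, namely Slc25a38, Slc25a3, Slc25a15, Slc25a32, Slc25a20 and Slc25a24. The SD between probes of 1 member was 0.19 over these 10. For the other 24 measured members there was a single probe above the floor.

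Genes for the import of carrier proteins that were above the floor on both arrays were, one by one, slightly higher in CA/CA. Of 16 import genes listed, 12 were measured, and 2 of these, Timm13 and Tomm70a, reached the floor in CA/CA only. Timm22 and Agk were below the floor on both arrays. All 10 above the floor on both arrays were above 0, against 51.3% of all such genes and 61.3% of the carriers. Timm10b and Tomm6, at 0.04 and 0.18, were below the probe SD of 0.24, and the probes of Timm10b disagreed in sign. With all probes kept, 13 of 14 were above 0. The median of the 10 was 0.35, between 0.28 and 0.44 over 8 other settings, and 0 were past 2-fold. Tomm40, the outer membrane import channel, was at 190 (control) and 329 (CA/CA), with its 2 probes at 0.02 and 0.96. Timm9, a chaperone that hands carriers to the inner membrane, was at 654 and 927, with 3 probes from 0.31 to 0.54, and Timm8a1, a relative, was at 954 and 1290. With 1 array per group, the difference between this list and the carriers was not tested.

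Other mitochondrial transporters had a median close to that of the carriers. Of 11 listed, with the outer membrane pores and the sideroflexins among them, 9 were measured, with a median of 0.04 (0.03 to 0.21 over 8 other settings), 1 at least 2-fold higher and 0 lower. This was Vdac2, an outer membrane pore, at 501 (control) and 1035 (CA/CA) through 1 probe, while Vdac1 and Vdac3 differed by 0.25 and 0.21. Sfxn1, a serine transporter of the inner membrane, was at 2117 and 2660. Mtch2 and Mtch1, relatives of the carriers in the outer membrane, were at 405 and 553 and at 2502 and 2041, and the 3 Mtch2 probes were all higher, by 0.36 to 0.58. Mitochondrial calcium uptake genes, 4 measured of 6, had a median of 0.15 (0.10 to 0.29) with 0 past 2-fold, Smdt1 being at -0.31 and Letm1 at 0.31. Factors of mitochondrial biogenesis, 8 measured of 9, had a median of 0.05 (0.05 to 0.08) with 0 past 2-fold, and Pprc1, a growth-regulated coactivator, had the largest difference, 0.46.

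**Figure D4:**
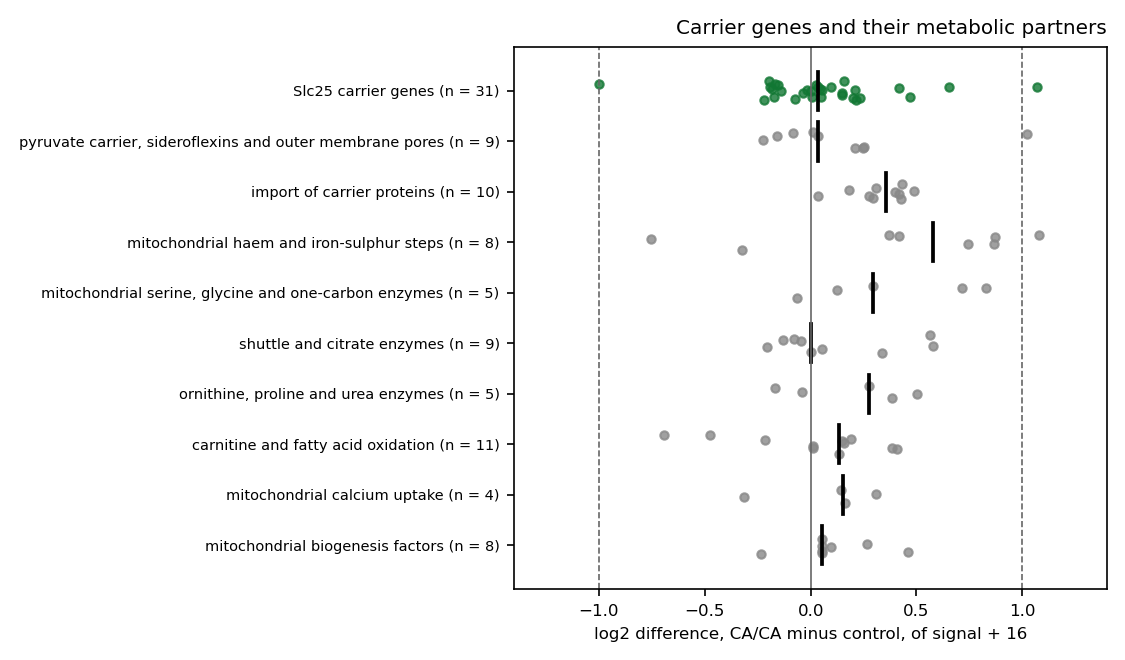
Log2 differences, CA/CA minus control, of the carrier genes (green) and of 9 lists of metabolic partners (grey), 1 point per gene above the floor on both arrays, with a black bar at each median and dashed lines at 2-fold; points are spread vertically for legibility. The carrier median is 0.03, while all 10 import genes lie above 0 and the haem and iron-sulphur genes run from -0.75 to 1.08.

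Markers of the sorted cells and of others that the gate could hold differed between the samples in some lists and little in others. Of 8 markers of the gate, 4 were measured, and the median of the 3 on both arrays was -0.18 (-0.58 to -0.06 over 8 other settings). Cd34 was at 287 (control) and 153 (CA/CA). Kit was at 970 and 677, but its 2 probes disagreed in sign, at -0.58 and 0.21, and their mean was -0.18. Flt3 was below the floor on both arrays. Ly6a, which encodes Sca1, is not analysed here. B progenitor markers, 5 measured of 8, had a median of -3.13, 4 of them at least 2-fold lower, and their summed signal above background was 8849 (control) and 483 (CA/CA). Granulocyte and monocyte markers, 8 of 8, had a median of -1.17, with 4 at least 2-fold lower and sums of 59226 and 32060. Of these 8, 7 were below 0 and 1, Ltf, was above it. Ltf had signals of 125 (control) and 200 (CA/CA), a difference of 0.62. Megakaryocyte markers, 6 of 6 measured and 5 on both arrays, had a median of -0.41 (-0.93 to -0.26). Of these 5, 1 was at least 2-fold lower, and Gp5 was the 1 above 0, at 0.42. Sums over all 6, with 1 above the floor in the control only, were 507 (control) and 224 (CA/CA). T and NK cell markers, 6 of 6 measured and 4 on both arrays, had a median of 0.09. It ranged from -0.14 to 0.32 over 8 other settings. Of these 4, 1 was at least 2-fold lower, Nkg7, at 4190 (control) and 1055 (CA/CA). Cd3d and Cd3g were higher, by 0.52 and 0.31, and Prf1 was at -0.14. Sums over all 6, with 2 above the floor in CA/CA only, were 4244 (control) and 1225 (CA/CA), and most of each was Nkg7. Mast cell and basophil markers, 5 of 6 measured and 4 on both arrays, had a median of 0.05 (0.03 to 0.15) with 0 past 2-fold. Of these 4, 3 were above 0, with Cpa3 at 0.40 and its 3 probes all higher, and Gata2 was at -0.73. Sums over all 5, with 1 above the floor in CA/CA only, were 1000.3 (control) and 827 (CA/CA). The lower sum rests on Gata2, at 828 and 491, the 1 marker of the 5 below 0. The part of these cells in the carrier values was not tested.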

How the data were processed

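Total RNA was amplified, biotin-labelled and hybridised in 1 colour, per the labels' protocols, and the submitters' processing notes name BeadStudio, without a version or settings. The deposited values are linear intensity values of 45281 probes, with 1 column per sample and the same median of 86.15 on both arrays. The sorted columns differed by at most 0.0022 (log2), as after quantile normalization. A second table held 4 value columns whose headings match no sample label, and it was not used. Genes were named from the platform annotation for the 34885 probes it pairs with 1 symbol, leaving out 18 with several and 10378 without one. The members and lists were chosen with earlier results of these data known.

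The background mode, 81.72 units, was taken as the centre of the narrowest range with 25% of values. The floor of 92 is this mode plus 4 SD, where the SD of the values below it is 2.57. At or above it were 37% of probes on each array. Probes above the floor on at least 1 array were averaged per gene, and log2(signal + 16) was compared. Where a gene passed the floor on 1 array only, the fold is a lower bound against the floor. The size rule was 2-fold, and members past 1.5-fold, 7 members fixed by name of which Ucp2 is not analysed here, and members with discordant probes are described by probe. From each list up to 3 members with the largest difference were to be named, and a few others were added after their values were seen. The steps were tested on simulated data, with 8692 genes compared between a simulated control and a simulated CA/CA array. Of 100 genes raised 4-fold, 94 passed the rule, and of 100 lowered 4-fold, 88 did. The changed genes were drawn from those well above background in the control. The simulated probe noise was smaller than the probe SD of 0.24. This recovery therefore does not cover dim genes or 2-fold changes. With 1 array per group, the number of arrays limits the precision. Sequence features of the carrier proteins were not analysed here. Python 3.11.15, numpy 2.4.6, pandas 2.3.3, matplotlib 3.10.9, R 4.3.3 and limma 3.58.1 were used.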

Additional observations from a re-analysis of the deposited data

How the results depend on the processing

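The count of carrier genes at least 2-fold higher was 1 and of those at least 2-fold lower 1 under no offset, background subtraction, normexp correction, both other floors, no floor, the brightest probe and updated symbols. With an offset of 50 both counts were 0, with a 3-fold threshold both were 0, and with a 1.5-fold threshold 2 were higher and 1 lower. Slc25a38 ranged from 0.98 to 1.45 and Slc25a45 from -1.13 to -0.96 over 8 settings, so an offset of 50 moves both inside 2-fold. The median over all measured members, with those above the floor on 1 array only included, ran from 0.01 to 0.04. Of the 31 members above the floor on both arrays, 30 kept their sign in each of the 8 settings that gave them a value, and Slc25a36 did not. The floor at 6 SD left 27 of the 31, without Slc25a22, Slc25a29, Slc25a43 and Slc25a51. Slc25a33 was at 0.58 with an offset of 50, inside 1.5-fold. Of 244 single-gene values, 12 moved by more than the probe SD, all under background subtraction or normexp correction and away from 0. No paired analysis was possible because each group has 1 sample. No member has a replicate, and signals near the floor of 92 limit what the dim carriers can show.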
